A study of Mus musculus with 12 samples.

Results

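The leukocyte integrins are 9 genes chosen by name, Itgax, Itgam, Itgal, Itgae, Itga1, Itga4, Itgb1, Itgb2 and Itgb7, of the 31053 genes in 2 single-cell RNA-seq (scRNA-seq) matrices. The rule that names them uses no measured value, although earlier results of these data were known when they were proposed. They were followed across cell types of spontaneous mammary tumors of female MMTV-PyMT mice, in which the mouse mammary tumor virus promoter drives the polyoma middle T oncogene in mammary epithelium. The hosts carried wild-type PAR2 or PAR2 G37I, a PAR2 mutant resistant to signaling by coagulation factor Xa. All animals carried the oncogene and none received another treatment. They were adults. The study's methods give ages for the tumor model in general, and the labels none by sample. For each genotype, 3 samples of CD11c+ cells, labelled macrophages and DCs, were selected with beads from late-stage tumors, and 3 samples of T cells with CD4 and CD8 beads from mid-size tumors, 12 samples in all. Cells were frozen and thawed before sequencing.

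Integrins are paired receptors of an alpha and a beta chain, and a chain reaches the cell surface only with a partner. The beta 2 chain Itgb2 pairs with Itgal as LFA-1, a receptor for Icam1, with Itgam as Mac-1, a receptor for complement fragments and fibrinogen, and with Itgax, which encodes CD11c itself, the antigen of the beads. The beta 7 chain Itgb7 pairs with Itgae, which encodes CD103, to form a receptor for E-cadherin, and with Itga4 as the gut-homing receptor for MAdCAM. Itgb1 pairs with Itga4 as VLA-4, a receptor for Vcam1 and fibronectin, and with Itga1 as a collagen receptor. Transcripts were measured here, and no pairing or surface protein was.

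Itgam and Itgax lie close together on the same strand of chromosome 7, yet their levels separated across the gates below, and Itga4 and Itgb7, whose products can pair, differed in opposite directions between migratory DC and the other dendritic cell gates. Their promoter sequences are shown for these reasons. In the GENCODE M21 annotation of GRCm38, the gene bodies lie at chr7:128062640-128118491 on the plus strand for Itgam, chr7:128129547-128150657 on the plus strand for Itgax, chr2:79255426-79333123 on the plus strand for Itga4 and chr15:102215995-102231944 on the minus strand for Itgb7. RefSeq promoters of GRCm38.p6 matched 6 of the 9 members, and the 200 bases before each of 4 start sites are given 5′ to 3′ on the gene's strand. Capitals mark the ETS core GGAAG, searched on both strands.
Itgax, chr7:128129350-128129549, plus strand: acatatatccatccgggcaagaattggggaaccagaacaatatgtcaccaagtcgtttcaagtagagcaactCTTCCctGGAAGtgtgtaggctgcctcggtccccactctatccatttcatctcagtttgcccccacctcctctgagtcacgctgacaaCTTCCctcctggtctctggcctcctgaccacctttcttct
Itgam, chr7:128062440-128062639, plus strand: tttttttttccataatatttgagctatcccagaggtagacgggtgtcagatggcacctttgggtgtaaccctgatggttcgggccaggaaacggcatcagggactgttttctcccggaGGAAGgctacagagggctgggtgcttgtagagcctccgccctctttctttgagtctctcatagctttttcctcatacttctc
Itga4, chr2:79255226-79255425, plus strand: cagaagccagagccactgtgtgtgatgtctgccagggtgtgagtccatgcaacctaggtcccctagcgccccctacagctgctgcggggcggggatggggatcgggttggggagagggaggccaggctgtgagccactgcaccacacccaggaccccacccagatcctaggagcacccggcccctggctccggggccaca
Itgb7, chr15:102231936-102232135, minus strand: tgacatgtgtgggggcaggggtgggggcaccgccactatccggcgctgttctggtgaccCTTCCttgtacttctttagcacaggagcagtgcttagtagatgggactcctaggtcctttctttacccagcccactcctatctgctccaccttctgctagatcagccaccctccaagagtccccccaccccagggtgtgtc
The core occurred 3 times in the Itgax window, 1 time each in those of Itgam and Itgb7 and 0 times in that of Itga4. It was present in 56.8% of 32851 promoters of this length. The RUNX core TGTGGT, present in 11.2% of those promoters, occurred 1 time in the Itga4 window, and the CCAAT box, present in 29.3%, 1 time in that of Itgax, both also searched on both strands. A match describes the letters and not the binding of a factor.

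The CD11c-selected matrix held 11980 barcodes and the CD4/CD8-selected matrix 23101, of which 11639 and 22806 cells had at least 200 detected genes, with medians of 7943 and 4361 UMIs per cell. The barcodes carry no sample name. Each list ran through the alphabet 6 times, as 6 lists joined would, and these stretches are called barcode runs. Runs could not be tied to samples or genotypes, so each matrix counted as 1 sample and neither a test nor a comparison of PAR2 genotypes was made. In the CD11c-selected matrix 76 barcodes occurred in more than 1 run, and 51 in the other. Cells were gated on raw UMIs of genes other than integrins, such as C1qa, C1qb and C1qc for macrophages, Xcr1 and Clec9a for cDC1, Cd209a with Flt3 or Zbtb46 for cDC2, Fscn1 with Ccr7 for migratory DC, S100a8, S100a9 and Csf3r for neutrophils, and Cd3 with Cd8, Cd4 or Foxp3 for T cells. This left 33.7% and 33.2% of cells outside every gate. Of 5 check markers per gate that no gate used, the number highest in its own gate was 5 for migratory DC, neutrophil, CD8 and Foxp3 cells, 4 or 5 for macrophages, 3 for cDC1 and CD4 cells, and 2 for cDC2 and for monocytes, whose gate held only 24 cells. The cDC2 check markers summed to 1639 CPM in the cDC2 gate and to at most 1408 in another, whereas those of CD4 T cells summed to 2338 CPM in the CD4 gate and to 3776 in Foxp3 T cells. The number was 0 for the 10 Trdc-gated cells of the CD4/CD8-selected matrix, whose label as gamma delta T cells the markers did not bear out. The Retnla/Ear2 gate and the subset gates of macrophages and CD8 T cells, all used below, were not checked by markers. Levels below are CPM, the UMIs of a gene per 1000000 UMIs summed over the cells of a gate, with exact 95% Poisson intervals that cover counting error only, and parentheses give that interval and the lowest, median and highest of the runs with at least 10 cells. Macrophage, dendritic cell and neutrophil gates refer to the CD11c-selected matrix and T cell gates to the CD4/CD8-selected matrix unless stated.

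**Figure D1:**
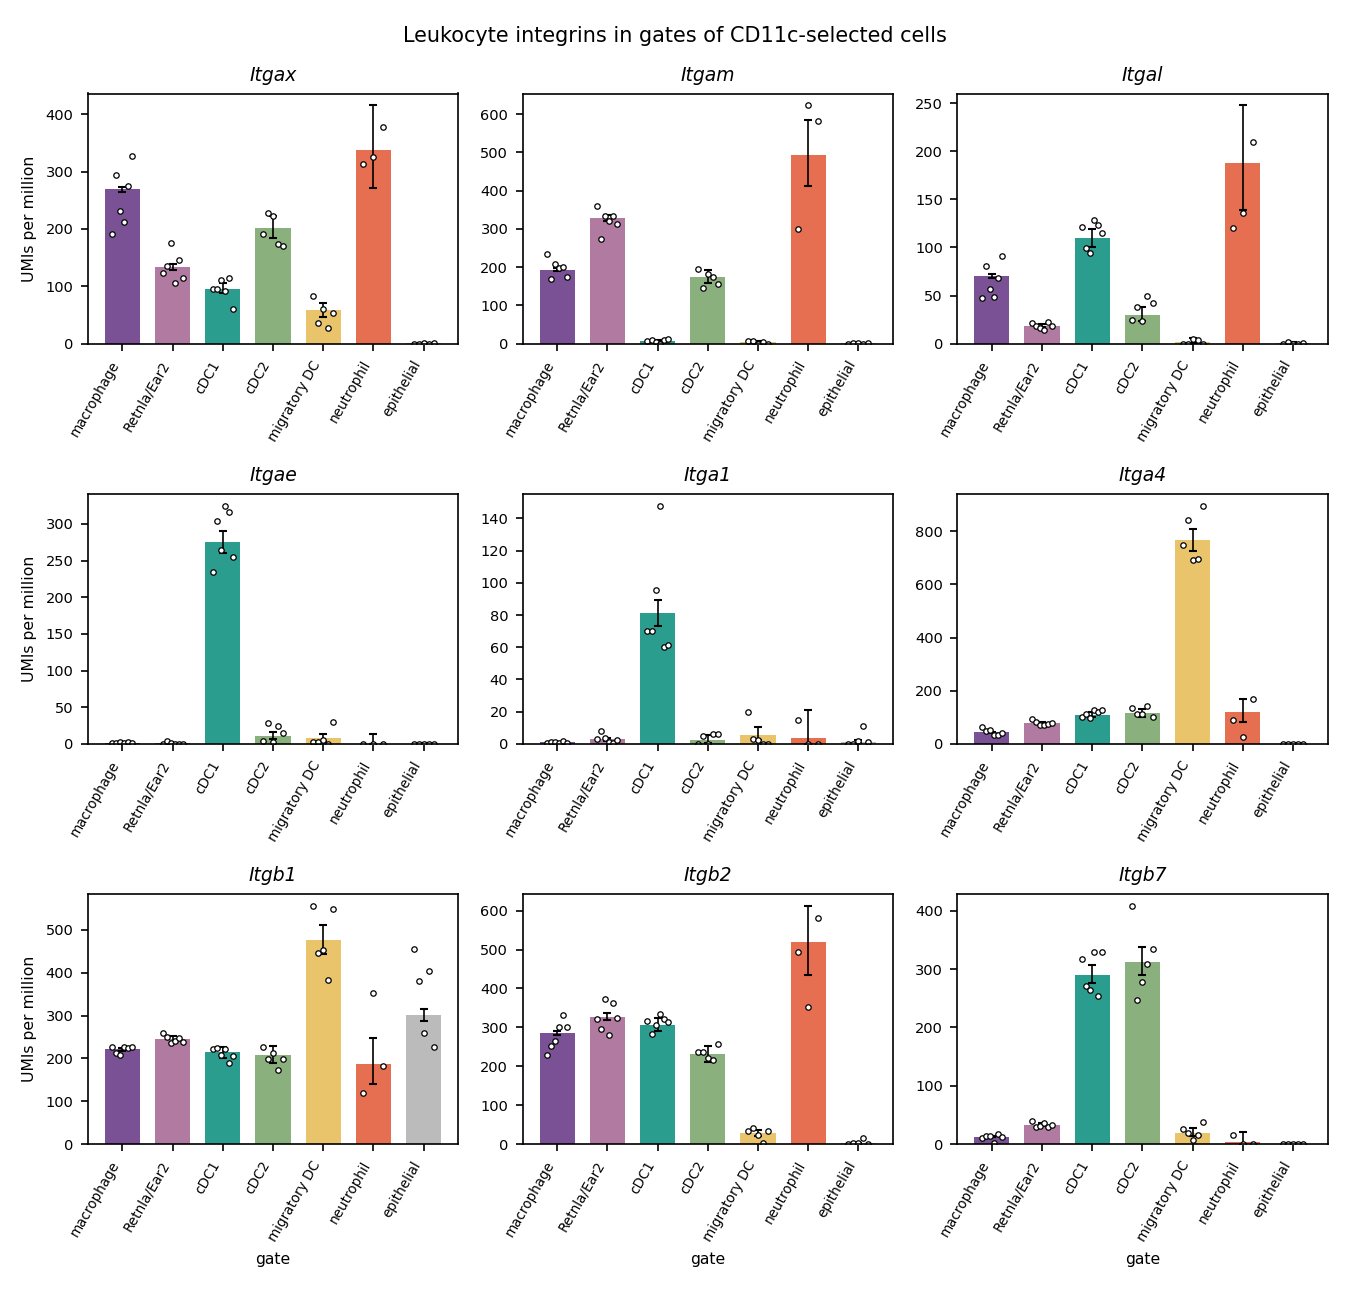
CPM of each of the 9 integrin genes (y axes, linear from 0) in 7 gates of CD11c-selected cells (x axes). Bars are levels over all cells of a gate, error bars exact 95% Poisson intervals and circles single barcode runs with at least 10 cells. Itgae and Itga1 stood high in cDC1, at 276 and 80.9 CPM, Itgb7 in cDC1 and cDC2, and Itga4 in migratory DC, where Itgb2 was low.

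Itgax, which encodes the alpha chain CD11c, was highest in neutrophils, macrophages and cDC2 among the main gates of the CD11c-selected matrix. Its level was 338 CPM (95% interval 272 to 415, runs 314, 325 and 378) in 86 neutrophils, 269 (265 to 274, runs 191, 253 and 326) in 5423 macrophages and 202 (184 to 222, runs 169.9, 192 and 227) in 177 cDC2. The run ranges of neutrophils and macrophages overlapped, as did those of macrophages and cDC2. It was 144 CPM in the 24 monocytes, 134 (runs 106, 129 and 175) in 1185 Retnla/Ear2 cells, gated on Retnla or Ear2 with Lyz2, and 96.1 (runs 59.8, 95.2 and 114) in 295 cDC1. Migratory DC, 159 cells gated on Fscn1 and Ccr7, had 57.9 CPM (runs 27.3, 52.7 and 82.7), and the 233 epithelial cells had 0.818 CPM. Itgax was thus 2.10-fold higher in cDC2 than in cDC1 (95% counting interval 1.84 to 2.40), and higher in all 5 of 5 runs compared. It was lowest among macrophages in the 196 cells gated on Lyve1, Cd209f or Cd209g, with 11.7 CPM (7.66 to 17.2). The other macrophages, with at most 2 UMIs each of Lyve1 with Cd209f and Cd209g, of Gpnmb and of Thbs1, had 309 (303 to 315). The Lyve1 gate was 26.3-fold lower than these (17.9 to 40.3). That order held in 6 of 6 runs, although 1 run of the Lyve1 gate reached 50.7 CPM.

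At equal depth, the share of cells with at least 1 Itgax UMI placed cDC2 and macrophages above cDC1, migratory DC and Lyve1 macrophages. Before thinning it was 58.4% in macrophages at a median of 7717 UMIs per cell, 74.6% in cDC2 at 10782, 62.4% in cDC1 at 15216, 25.2% in migratory DC at 9627 and 5.10% in Lyve1 macrophages at 8710.5. Epithelial cells, which should lack the gene, had 2.15% at a median of 18401. With each cell thinned to 1000 UMIs, which left out 136 macrophages and 14 epithelial cells, the shares were 21.8%, 23.2%, 7.46%, 3.77% and 1.02% in the same gates. No UMI was left in 219 epithelial cells, which allows a share of up to 1.37%. The Lyve1 share after thinning rested on 2 of 196 cells, a level near that of background.

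**Figure D2:**
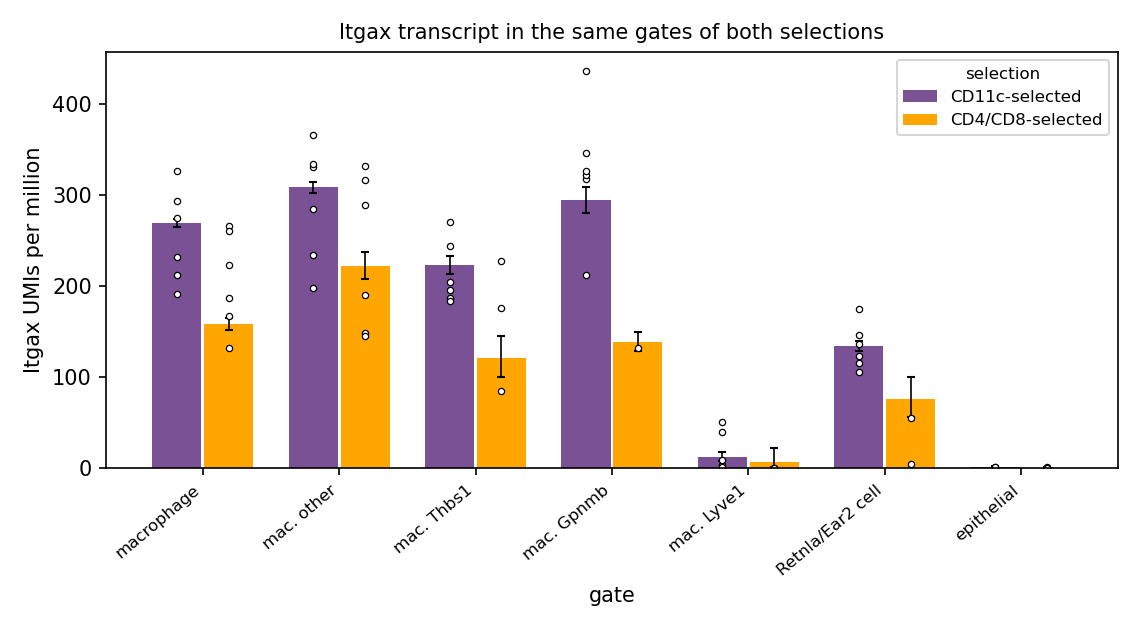
Itgax CPM (y axis, linear from 0) in 7 gates (x axis) of the CD11c-selected and the CD4/CD8-selected matrix. Bars are levels over all cells of a gate, error bars exact 95% Poisson intervals and circles barcode runs with at least 10 cells. The macrophage runs of both matrices overlapped, between 191 and 326 and between 131 and 266 CPM, and Lyve1 macrophages were low in both.

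The bead antigen was next set against its transcript in macrophages that came through either selection. Itgax was 269 CPM in 5423 macrophages selected on CD11c and 158 CPM (151 to 165, runs 131, 205 and 266) in 735 macrophages recovered among the CD4/CD8-selected cells, a ratio of 1.71 (1.63 to 1.79) or 0.77 on the log2 scale. The median of all genes tested in that comparison was 0.18 on the log2 scale. The ratio leaned on 1 barcode run, the third of the CD4/CD8-selected matrix, which held 394 of the 735 macrophages. Without it the ratio was 1.21, and with runs weighted equally it was 1.24. Within subsets the ratio was 2.13 (1.95 to 2.33) in Gpnmb macrophages, where that run held 172 of 193 cells of the CD4/CD8-selected matrix. It was 1.85 (1.53 to 2.25) in Thbs1 macrophages and 1.39 (1.29 to 1.49) in the other macrophages defined above. Retnla/Ear2 cells gave 1.78 (1.34 to 2.42) over 45 cells of the CD4/CD8-selected matrix. Selection and tumor stage differed together between the matrices and cannot be told apart.

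Some cells of the CD11c-selected matrix had little or no Itgax transcript. Lyve1 macrophages had the low level given above, and the epithelial, fibroblast and endothelial gates had 5, 2 and 0 Itgax UMIs in 233, 77 and 25 cells. The 21 CD8 T cells of that matrix had 4 Itgax UMIs in all, 43.6 CPM (11.9 to 112), against 8.70 (8.05 to 9.40) in the 13581 CD8 T cells of the other. The interval of that ratio, 1.36 to 12.9, rested on those 4 UMIs. CD4 T cells had 0 Itgax UMIs in 519 cells, and the floor of 3 counts over the gate is 1.34 CPM. Against that floor the level of CD8 T cells was 6.51-fold higher, while the exact 95% interval of the ratio begins at 5.28-fold. Of the other members in macrophages, the ratio between matrices was 0.994 for Itgb1, 0.937 for Itgam, 0.801 for Itgb2, 1.25 for Itga4, 1.79 for Itgal and 2.38 for Itgb7. Itgae and Itga1 gave 3.20 (1.41 to 8.98) and 3.01 (1.11 to 11.5) on 6 and 4 UMIs in the CD4/CD8-selected matrix. Within Gpnmb macrophages Itgal gave 1.07 (0.869 to 1.31), where Itgax gave 2.13. Of 7 members tested, 1 (Itgb7) was at least 2-fold higher in the CD11c-selected matrix and 0 lower, beside 3.92% and 2.74% of all genes. Paired percentages below likewise give the share of all genes tested that was higher and then the share that was lower.

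Itgam, the alpha chain of Mac-1, followed another order than its neighbour Itgax. It was highest in neutrophils, at 492 CPM (411 to 584, runs 299, 581 and 623), and stood at 328 (319.7 to 336, runs 274, 328 and 360.1) in Retnla/Ear2 cells. Macrophages had 193 CPM (189 to 197, runs 168, 199 and 235) and cDC2 175 (158 to 193, runs 146, 173 and 194), with overlapping runs. In neutrophils it was 2.55-fold that of macrophages (2.13 to 3.03), higher in 3 of 3 runs, and 44 of the 86 neutrophils came from 1 run. cDC1 and migratory DC were near background, with 6.83 and 3.66 CPM, against 0.982 in epithelial cells. The difference between cDC2 and cDC1 was 25.6-fold (17.9 to 37.7), in 5 of 5 runs.

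Among macrophages, Itgam and Itgax did not go together. Lyve1 macrophages, poor in Itgax, had 272 CPM of Itgam (251 to 295, runs 222, 253 and 380.3), and Gpnmb macrophages 317 (302 to 332), against 142 (138 to 147, runs 117, 146 and 206) in the other macrophages defined above. The ratios were 1.91 (1.75 to 2.08) and 2.22 (2.10 to 2.35), each in 6 of 6 runs. Median UMIs per cell were 8710.5 in Lyve1, 21273.5 in Gpnmb and 6300 in the other macrophages. The 2340 macrophages with at least 2 Itgax UMIs had 161 CPM of Itgam, and the 2256 with 0 had 264, a ratio of 0.608 (0.583 to 0.634) and lower in 6 of 6 runs. The cells with and without Itgax also differed in depth, with medians of 11889.5 and 4731.5 UMIs per cell. Itgam shares exons on its strand with the annotated gene Gm49368, which had 729 UMIs in the CD11c-selected matrix against 22048 of Itgam, and reads of the shared exons cannot be assigned.

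Itgal, the alpha chain of LFA-1, was highest in neutrophils and T cells, followed by cDC1. Its level was 188 CPM (139 to 248) in neutrophils, 174 (171 to 177, runs 154, 174 and 196) in CD8 T cells, 178 (161 to 196, runs 115, 174 and 222) in CD4 T cells and 149 (111 to 194, runs 106, 159 and 176) in 64 Foxp3 T cells, with overlapping runs. cDC1 had 109 CPM (100.2 to 119, runs 94.4, 118 and 129), 3.64-fold that of cDC2 (2.81 to 4.78), which had 30.1. The runs of cDC1 and cDC2 did not overlap, since the highest cDC2 run had 49.5 CPM. Macrophages had 70.0 CPM (67.7 to 72.2, runs 47.2, 62.5 and 90.6), below every CD8 T run, and the ratio of CD8 T cells to macrophages was 2.49 (2.40 to 2.58). Against the macrophages of the CD4/CD8-selected matrix, at 39.1 CPM, it was 4.45 (4.08 to 4.88). Migratory DC had only 3 Itgal UMIs, 59.8-fold below cDC1 (20.3 to 291).

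From cell to cell within macrophages, Itgal was higher where Itgax was detected. Cells with at least 2 Itgax UMIs had 88.5 CPM of Itgal against 30.6 in those with 0, a ratio of 2.89 (2.62 to 3.21) in 6 of 6 runs. By subset, Itgal was 89.5 CPM in the other macrophages defined above, 57.0 in Thbs1, 37.8 in Gpnmb and 12.6 in Lyve1 macrophages. The last 2 were 2.37-fold (2.06 to 2.74) and 7.09-fold (4.89 to 10.7) below the first, each in 6 of 6 runs. Itgax did not follow this order in Gpnmb macrophages, where it was 295 CPM against 309, a ratio of 0.955 (0.906 to 1.01). Retnla/Ear2 cells had 18.7 CPM of Itgal.

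Itgb2, the beta chain shared by these alpha chains, was present in every leukocyte gate with 1 low exception. Levels were 518 CPM (435 to 612, runs 352, 493 and 581) in neutrophils, 328 in Retnla/Ear2 cells, 307 (291 to 323, runs 282, 314 and 335) in cDC1, 286 (281 to 291, runs 229.7, 283 and 331) in macrophages and 231 (211 to 252, runs 216, 236 and 256) in cDC2. CD8 T cells had 172 CPM (runs 159.7, 174 and 192), and macrophages were 1.66-fold higher than CD8 T cells (1.62 to 1.70). Gpnmb macrophages, at 484 CPM, were 2.02-fold above the other macrophages defined above (1.93 to 2.11) in 6 of 6 runs. Median UMIs per cell were 21273.5 in Gpnmb macrophages and 6300 in the others, and the part of depth in this ratio was not tested. The exception was migratory DC, with 28.0 CPM (20.5 to 37.4, runs 3.90, 33.9 and 41.7), 10.9-fold below cDC1 (8.16 to 15.0) and 8.23-fold below cDC2 (6.08 to 11.4). The share of migratory DC with an Itgb2 UMI was 15.1%, against 94.2% of cDC1, 84.2% of cDC2 and 5.15% of epithelial cells, and after thinning 1.89%, 25.8%, 20.3% and 0%.

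Members at least 2-fold apart were counted between macrophage subsets, and between Retnla/Ear2 cells and macrophages. Against the other macrophages defined above, 3 of 7 were lower and 0 higher in Lyve1 macrophages (Itgax, Itgal and Itgb7), beside 8.41% of all genes lower and 9.79% higher. In Gpnmb macrophages 2 were higher (Itgam and Itgb2) and 1 lower (Itgal), beside 4.45% and 5.29% of all genes, and in Thbs1 macrophages 0 of 7 passed in either direction, beside 2.76%. Retnla/Ear2 cells against all macrophages had 1 higher (Itgb7) and 2 lower (Itgax and Itgal) of 7, beside 5.42% and 7.04%. Itga4 was 77.7 CPM in Retnla/Ear2 cells and 44.2 in macrophages, a ratio of 1.76 (1.64 to 1.87) in 6 of 6 runs.

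Itgae, which encodes the alpha chain CD103, was high in cDC1 and low in the other myeloid gates named here. cDC1 had 276 CPM (261 to 291, runs 235, 284 and 325), cDC2 11.1 (7.11 to 16.5, runs 2.76, 14.9 and 27.8), migratory DC 7.31 (3.78 to 12.8) and macrophages 1.47 (1.16 to 1.84). Neutrophils had 0 UMIs, where the floor of 3 counts is 11.3 CPM. The ratio of cDC1 to cDC2 was 24.8 (16.6 to 38.9), with runs that did not overlap. It rested on 24 UMIs in cDC2, and doubling the gate minima left 8 UMIs there and a ratio of 43.8. An Itgae UMI was seen in 84.4% of cDC1, 6.21% of cDC2 and 0.429% of epithelial cells, and after thinning in 25.1%, 2.82% and 0%.

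The partner chain Itgb7 was shared by both conventional DC gates. It was 313 CPM (289 to 337, runs 247, 309 and 408) in cDC2 and 290.5 (275 to 306, runs 254, 294 and 329.8) in cDC1, a ratio of cDC1 to cDC2 of 0.929 (0.847 to 1.02) whose interval includes 1. Macrophages had 13.0 CPM (12.0 to 14.0), so cDC1 and cDC2 were 22.4-fold (20.4 to 24.6) and 24.1-fold (21.6 to 26.8) higher, in every run compared. Monocytes had 90.5 CPM over 22 UMIs, beside 279.8 CPM of Itgam, 349.8 of Itgb2 and 0 Itgae UMIs, Retnla/Ear2 cells 33.4 and migratory DC 19.5 (13.3 to 27.5, runs 7.48, 19.2 and 37.6), which is 14.9-fold below cDC1 (10.5 to 21.9) in 5 of 5 runs. At least 1 UMI of both Itgae and Itgb7 was found in 80.0% of cDC1 (95% exact binomial interval 75.0 to 84.4), 4.52% of cDC2 and 0.629% of migratory DC.

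Itga1, the collagen-binding alpha chain, was the other member that set cDC1 apart. cDC1 had 80.9 CPM (73.1 to 89.4, runs 60.4, 69.9 and 148), against 2.31 (0.751 to 5.39) in cDC2 and 0.925 (0.684 to 1.22) in macrophages. Every cDC1 run was above every cDC2 run, of which the highest had 6.18 CPM. The ratio of cDC1 to cDC2 was 35.0 (14.9 to 108) on 391 and 5 UMIs. Epithelial cells had 1.31 CPM, and the stromal gates were high, with 165 CPM in fibroblasts and 229 in 25 endothelial cells. Markers of fibroblasts summed to no more than 189 CPM in any other gate of at least 50 cells, against 16999 CPM in the fibroblast gate, and their part in the cDC1 level was not tested. In cDC1, Itga1 was 77.0 CPM in cells with at least 2 Itgae UMIs and 95.3 in those with 0, a ratio of 0.807 (0.609 to 1.09).

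Between cDC1 and cDC2, 3 of 9 members were at least 2-fold higher (Itgal, Itgae and Itga1) and 2 lower (Itgax and Itgam), beside 9.90% and 11.9% of all genes. Against macrophages, cDC1 had 4 of 9 higher (Itgae, Itga1, Itga4 and Itgb7) and 2 lower (Itgax and Itgam), beside 9.93% and 17.9%. cDC2 had 3 of 8 higher (Itgae, Itga4 and Itgb7) and 1 lower (Itgal), beside 8.51% and 16.0%. Both comparisons share the macrophages. Neutrophils against macrophages had 3 of 7 higher (Itgam, Itgal and Itga4) and 1 lower (Itgb7, with 1 UMI in neutrophils), beside 23.6% and 17.3% of all genes.

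Itga4 marked migratory DC. Its level there was 765 CPM (724 to 809, runs 693, 747 and 896), and every run lay above every run of the gates that follow. It was 120.2 (82.2 to 169.6, runs 27.1, 89.7 and 169) in neutrophils, 117 (103 to 132, runs 101, 111 and 142) in cDC2, 109.7 (101 to 119, runs 96.1, 116 and 129) in cDC1 and 44.2 (42.5 to 46.1, runs 33.7, 44.7 and 63.9) in macrophages. Those of neutrophils, cDC2 and cDC1 overlapped. Migratory DC were 6.98-fold above cDC1 (6.30 to 7.74), 6.57-fold above cDC2 (5.73 to 7.55) and 17.3-fold above macrophages (16.1 to 18.5), in 5 of 5 runs each. cDC2 were 2.63-fold above macrophages (2.30 to 3.00), in 5 of 5 runs. An Itga4 UMI was found in 96.9% of migratory DC, 70.5% of cDC1, 54.8% of cDC2 and 2.58% of epithelial cells, and after thinning in 49.1%, 9.15%, 10.7% and 0.457%. Exons of Itga4 overlap those of Cerkl on the opposite strand, which had 82 UMIs in this matrix against 9084 of Itga4.

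Itgb1, the beta chain of most matrix receptors, was higher in migratory DC along with Itga4. Itgb1 was 477 CPM (444 to 511, runs 382, 454 and 556) in migratory DC and between 209 and 221 CPM in cDC1, cDC2 and macrophages, whose runs overlapped. The ratio to cDC1 was 2.22 (2.02 to 2.44) and to cDC2 2.28 (2.03 to 2.57), in 5 of 5 runs each. Expressed as UMIs of Itgb7 per 100 UMIs of Itgb1, the balance was 136 (125 to 147) in cDC1, 149.6 (133 to 169) in cDC2 and 4.09 (2.78 to 5.83) in migratory DC. Both Itga4 and Itgb1 were found in 87.4% of migratory DC, 66.4% of cDC1 and 48.6% of cDC2, and both Itga4 and Itgb7 in 11.3%, 67.1% and 49.7%. Itgb1 was also high outside the leukocytes, with 302 CPM in epithelial cells, 551 in fibroblasts and 628 in endothelial cells.

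**Figure D3:**
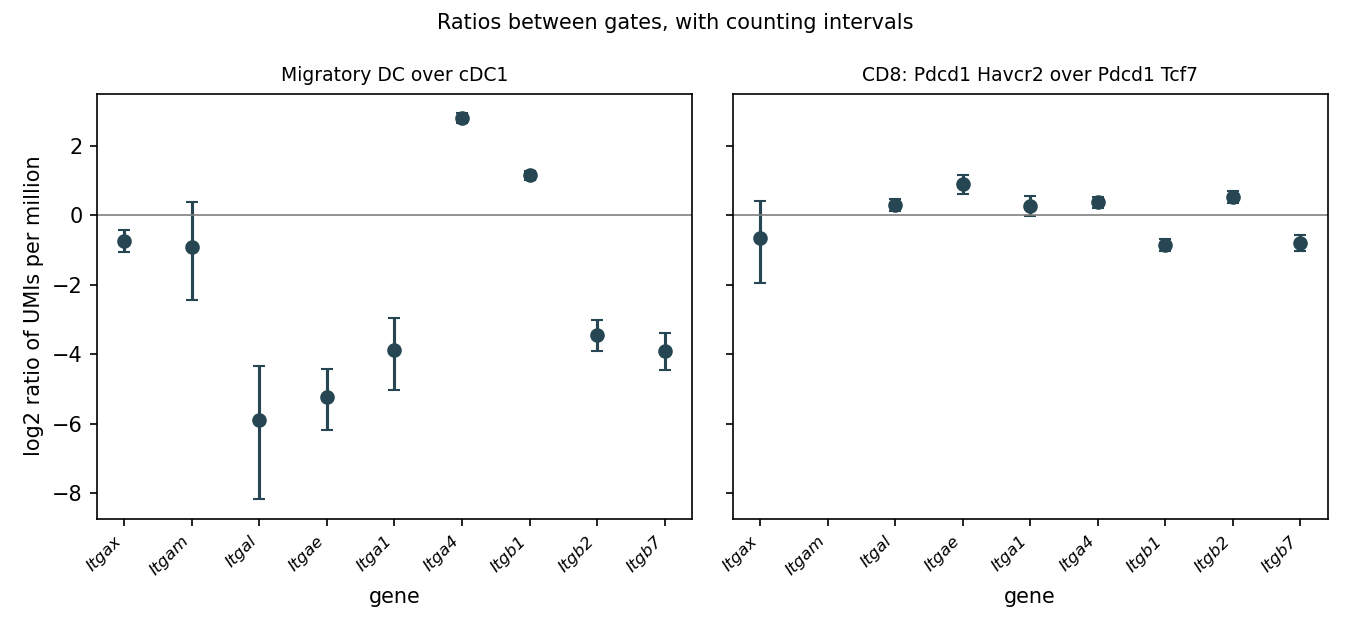
Ratio of levels in CPM on the log2 scale (y axes) for each integrin gene (x axes), in migratory DC over cDC1 (left) and in Pdcd1 Havcr2 over Pdcd1 Tcf7 CD8 T cells (right). Points are ratios of the summed levels and error bars exact 95% counting intervals, genes with under 10 UMIs in both gates together are not drawn. Itga4 and Itgb1 lay above 0 in migratory DC and the other 7 below, although the interval of Itgam included 0. Among CD8 T cells Itgb1 and Itgb7 lay below and Itgae, Itga4, Itgal and Itgb2 above.

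Migratory DC had the largest number of members past 2-fold among the dendritic cell comparisons. Against cDC1, 2 of 8 were higher (Itga4 and Itgb1) and 5 lower (Itgal, Itgae, Itga1, Itgb2 and Itgb7), beside 17.1% and 22.2% of all genes. Against cDC2, 2 of 8 were higher, the same genes, and 5 lower (Itgax, Itgam, Itgal, Itgb2 and Itgb7), beside 14.2% and 19.1%. Against macrophages 2 of 7 were higher, again the same genes, and 4 lower (Itgax, Itgam, Itgal and Itgb2), beside 15.1% and 28.2%. These comparisons share the migratory DC. In the 20 migratory DC with at least 2 Itgax UMIs, Itga4 was 435 CPM and Itgb2 84.3, against 883 and 11.7 in the 119 with 0. The ratios were 0.492 (0.415 to 0.580) and 7.23 (3.64 to 15.4), on medians of 17131.5 and 8658 UMIs per cell. Itgam, Itgal, Itgae and Itgb7 were also higher in the 20 cells and Itga1 and Itgb1 lower, although the interval of Itga1 included 1. No run held enough cells of both groups to be compared.

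Genes that work with the integrins were then counted in the same comparisons. Of the 10 tested of 14 cytoplasmic partners, 1 was at least 2-fold higher in migratory DC than in cDC1 (Cyth1, a regulator of LFA-1 adhesion) and 1 lower (Fermt3, kindlin-3, which activates integrins in blood cells). Of all genes in that comparison, 17.1% were higher and 22.2% lower. Fermt3 was 34.1 CPM in migratory DC, 105 in cDC1 and 156 in macrophages. Of 12 ligands, 6 were tested and 6 were higher in migratory DC than in cDC1, and the one with the highest level was Icam1, the ligand of LFA-1, with 287 against 97.7 CPM. Their median difference was 2.65 on the log2 scale, beside -0.19 over all genes tested, and for the members it was -3.67. Against cDC2, 4 of 7 ligands tested were higher in migratory DC and 2 lower (Cdh1 and Fn1), beside 14.2% and 19.1% of all genes. Against macrophages 3 of 7 were higher and 3 lower (Vcam1, Fn1 and C3), beside 15.1% and 28.2%. Of 17 other integrin subunits, 5 were tested between migratory DC and cDC1, with 2 higher in migratory DC (Itga6 and Itgb8) and 1 lower (Itga3). Itga3, a laminin-binding alpha chain, was 50.7 CPM in cDC1, 4.27 in migratory DC and 0.208 in macrophages. In cDC1 against macrophages, 5 of the 6 other subunits tested were lower (Itga5, Itga6, Itga9, Itgav and Itgb5), and 4 of 5 ligands, among them Vcam1 with 1.86 against 203 CPM and Fn1 with 3.11 against 256. Of all genes in that comparison, 17.9% were lower.

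**Figure D4:**
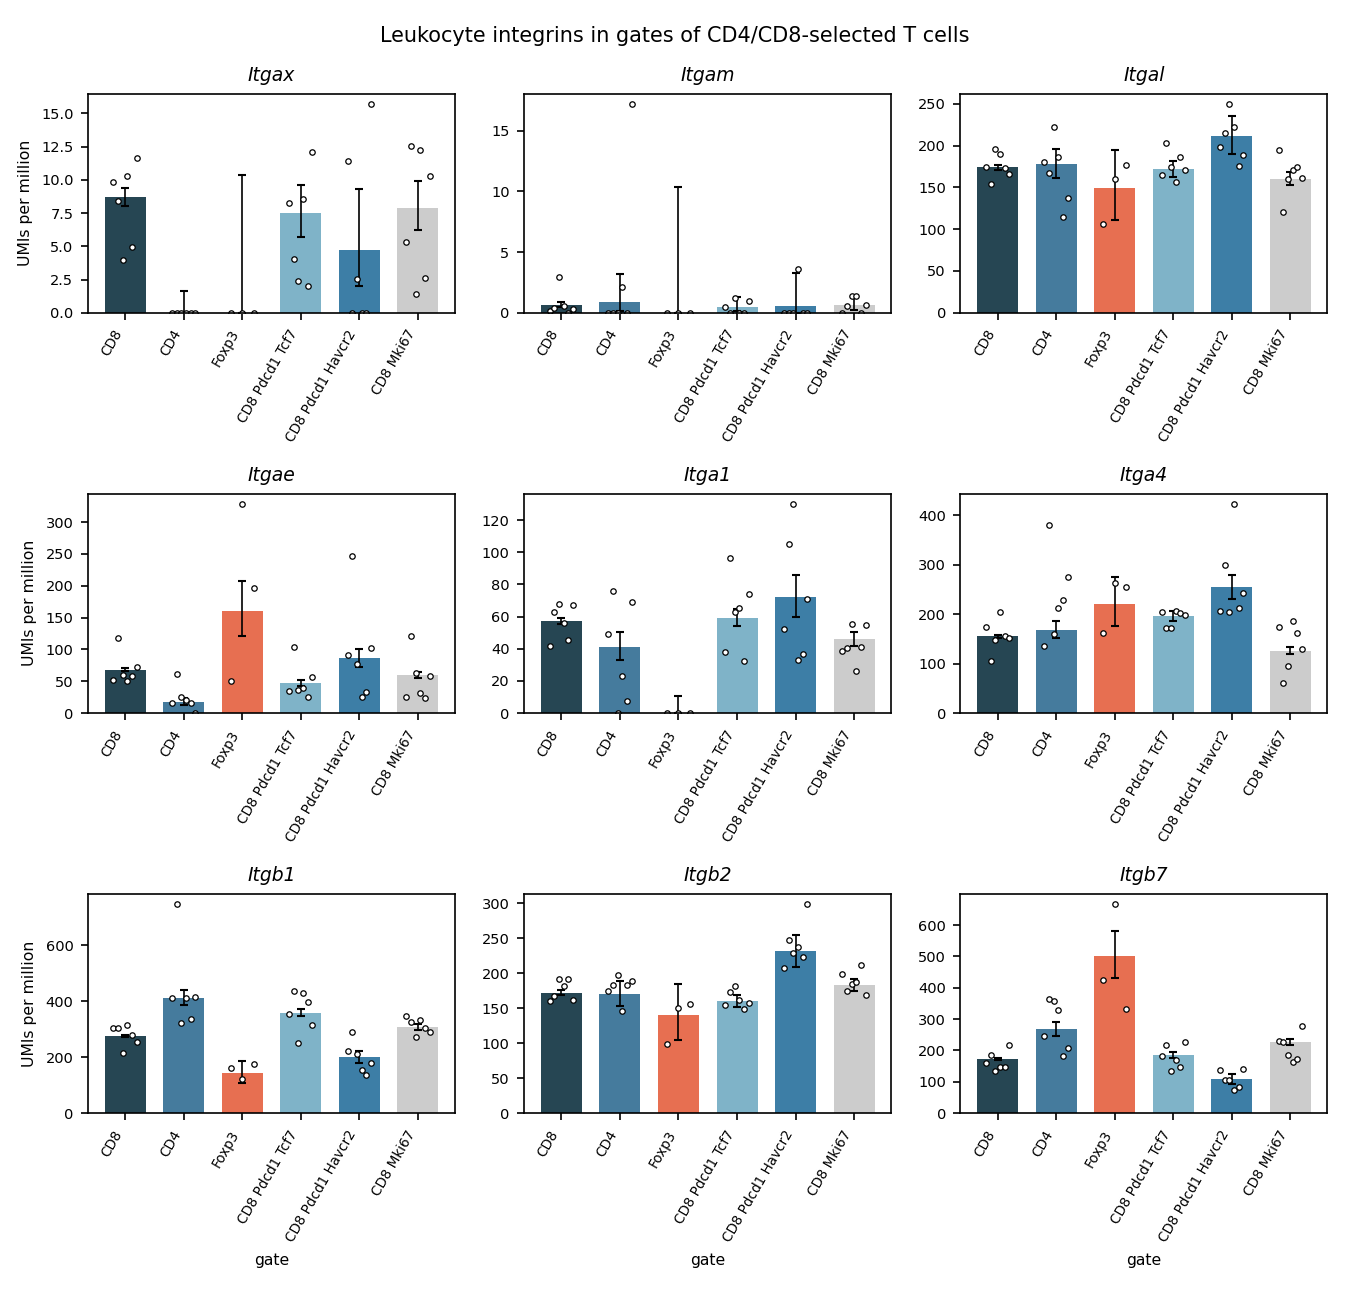
CPM of each integrin gene (y axes, linear from 0, with scales that differ between genes) in 6 gates of CD4/CD8-selected T cells (x axes), the last 3 being subsets of the CD8 gate. Bars are levels over all cells of a gate, error bars exact 95% Poisson intervals and circles barcode runs with at least 10 cells. Itgae and Itgb7 stood high in Foxp3 T cells, at 159.9 and 502 CPM, and Itgb1 stood low there, at 143 CPM.

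In T cells the run ranges of Itgal and Itga4 overlapped across the CD8, CD4 and Foxp3 gates. Itgb2 was 172 CPM in CD8, 171 in CD4 and 140.3 in Foxp3 T cells (runs between 99.1 and 157), and the interval of the ratio of Foxp3 to CD8 cells, 0.813 (0.603 to 1.07), includes 1. Itgb7 was 173 CPM (169.8 to 176, runs 135, 154 and 218) in CD8, 267 (246 to 289, runs 183, 289 and 365) in CD4 and 502 (431 to 581, runs 333, 425 and 666) in Foxp3 T cells. Foxp3 cells were 1.88-fold above CD4 cells (1.58 to 2.22) in 3 of 3 runs, although the ranges over runs overlapped. Itgae was 68.3 CPM (66.4 to 70.2, runs 50.8, 59.2 and 118) in CD8, 17.8 (12.7 to 24.3, runs 0, 18.2 and 60.9) in CD4 and 159.9 (121 to 207, runs 49.6, 196 and 328) in Foxp3 T cells. The ratio of Foxp3 to CD4 cells was 8.98 (5.89 to 13.8) in 3 of 3 runs on 57 and 40 UMIs, and CD8 cells were 3.83-fold above CD4 cells (2.81 to 5.37) in 6 of 6 runs. An Itgae UMI was found in 37.5% of Foxp3, 18.4% of CD8 and 4.05% of CD4 T cells and in 1.58% of epithelial cells, and after thinning in 12.7%, 5.89%, 1.36% and 0%. Both Itgae and Itgb7 were found in 34.4% of Foxp3 cells (22.9 to 47.3) and 11.4% of CD8 cells (10.8 to 11.9).

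Itgb1, like Itgb7, was higher in CD4 than in CD8 T cells, but unlike Itgb7 it was lowest in Foxp3 T cells. It was 412 CPM (386 to 439.8, runs 320.4, 410.3 and 745) in CD4, 277 (273 to 281, runs 217, 291 and 315) in CD8 and 143 (107 to 188, runs 122, 163 and 176) in Foxp3 T cells, and none of these ranges overlapped. Foxp3 cells were 2.88-fold below CD4 cells (2.17 to 3.90), and CD4 cells 1.49-fold above CD8 cells (1.39 to 1.59). UMIs of Itgb7 per 100 of Itgb1 were 62.4 (61.1 to 63.8) in CD8, 64.8 (58.4 to 71.9) in CD4 and 351 (256 to 489) in Foxp3 T cells. Itga4 was 222 CPM in Foxp3, 168 in CD4 and 156 in CD8 T cells, with overlapping runs. Itga1 was 57.3 CPM (runs 41.5, 59.5 and 67.9) in CD8 and 41.0 (runs 0, 36.3 and 76.1) in CD4 T cells, a ratio of 1.40 (1.14 to 1.74), although CD4 T cells were higher in 3 of 6 runs. The first barcode run held 345 of the 519 CD4 T cells, and without it that ratio was 2.36 on 21 UMIs of CD4 T cells. Foxp3 T cells had 0 Itga1 UMIs, where the floor of 3 counts is 8.42 CPM. Against that floor the levels of CD4 and CD8 T cells were 4.87-fold and 6.81-fold higher, while the exact 95% intervals of the ratios begin at 3.88-fold and 5.53-fold.

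Of 7 members tested, 0 were at least 2-fold higher and 1 (Itgae) lower in CD4 than in CD8 T cells, beside 4.73% and 3.17% of all genes. In Foxp3 against CD4 T cells 1 was higher (Itgae) and 2 lower (Itga1 and Itgb1), beside 13.8% and 8.26%. Of 5 other subunits tested there, 3 were higher, among them the TGF-beta activating pair Itgav, with 735 against 126 CPM, and Itgb8, with 140.3 against 9.35. The Trdc gate without Cd8 or Cd4 UMIs held 10 cells in this matrix, with 157 CPM of Itgae (71.9 to 299) on 9 UMIs and 34.9 of Itgb7 on 2. The 9 such cells of the CD11c-selected matrix had 463 CPM of Itgae (308 to 669.8) on 28 UMIs, 265 of Itga1 on 16 and 331 of Itgb7 on 20. A wider gate required at least 2 Trdc UMIs, set no condition on Cd8 or Cd4, and was not checked by markers. It held 193 cells, 125 of them from 1 run. Itgae there was 117 CPM (99.7 to 136, runs 30.0, 130.1 and 136), 1.71-fold that of CD8 T cells (1.46 to 2.00) but higher in only 2 of 3 runs. None of 7 members was past 2-fold there, in either direction, beside 3.50% of all genes.

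From CD8 T cells with the checkpoint receptor Pdcd1 and no Mki67 UMI, separate groups were gated. They were 317 cells with Havcr2, a gene of terminal exhaustion, and no Tcf7 UMI, and 1276 with Tcf7, a gene of progenitor cells, and no Havcr2 UMI. Other cells with Pdcd1 were in neither group, and median UMIs per cell were 4581 and 5421. The groups differed by less than 2-fold in all 7 members tested, beside 4.28% of all genes past it in either direction. The beta chains nevertheless differed in every run, with Itgb1 and Itgb7 lower and Itgb2 higher in Pdcd1 Havcr2 cells. Itgb1 was 199 CPM (179 to 222, runs 135, 196 and 289) in Pdcd1 Havcr2 and 359 (346 to 373, runs 249, 377 and 435) in Pdcd1 Tcf7 cells, and Itgb7 108 (92.9 to 125, runs 72.9, 106 and 141) and 186 (177 to 196, runs 135, 177 and 228). Their ratios were 0.555 (0.494 to 0.622) and 0.580 (0.495 to 0.677), lower in 6 of 6 runs. Itgb2 was 231 against 160.3 CPM, a ratio of 1.44 (1.28 to 1.62), and Itga4 255 (231 to 280.0, runs 204, 228 and 423) against 197 (187 to 206, runs 171, 201 and 207), a ratio of 1.30 (1.16 to 1.44), both higher in 6 of 6 runs. Itga1 was 72.0 CPM (59.8 to 85.9, runs 32.8, 61.6 and 130.0) against 59.3 (54.1 to 64.9, runs 32.6, 64.0 and 96.5), and the interval of its ratio, 1.21 (0.986 to 1.48), includes 1. Itgae was 86.1 CPM (runs 25.5, 83.9 and 247) against 46.5 (runs 24.7, 37.7 and 103), a ratio of 1.85 (1.52 to 2.25) and higher in 5 of 6 runs with overlapping ranges. The 799 cycling CD8 cells gated on Mki67 differed from Pdcd1 Tcf7 cells by less than 2-fold in 7 of 7 members, beside 10.4% of all genes, and Itga4 was lower there in 6 of 6 runs, at 126 CPM.

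Itgae went with Itga1 and Itgb7 from cell to cell in the CD8 gate. The 1255 CD8 T cells with at least 2 Itgae UMIs had 103 CPM of Itga1 and 231 of Itgb7, against 47.2 and 157 in the 11076 with 0. The ratios were 2.18 (2.02 to 2.35) and 1.47 (1.41 to 1.55), higher in 6 of 6 runs. Itga4 was lower in the cells with Itgae, at 106 against 167 CPM, a ratio of 0.633 (0.593 to 0.676), and so was Itgal, at 147 against 181, each in 6 of 6 runs. Median UMIs per cell were 5985 and 4501. Split on Itga1 instead, the 958 cells with at least 2 Itga1 UMIs had 143 CPM of Itgae and 216 of Itgb7. The 10770 with 0 had 52.5 and 163. The lower Itgal was not seen in that split, where the ratio was 1.03 (0.974 to 1.10). Itga4 gave 0.880 (0.822 to 0.941) there but was higher in 2 of 6 runs.

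Across 25 gates of at least 50 cells in both matrices, of which the subset gates share cells with their parent gates, the genes of 6525 compared whose log2(CPM + 1) went most closely with each member were named. They were Ncf1, Scimp and Fgr for Itgax (Pearson's r 0.918 to 0.925), Igsf6, Cd300ld and Fcgr3 for Itgam (0.978 to 0.980), Mfng, Sla and Rac2 for Itgal (0.934 to 0.973) and Cyth4, Fermt3 and Vav1 for Itgb2 (0.976 to 0.983). Itgae went with Sept6 and Myl12b (0.923 and 0.903), and Itgb7 with Map4k1 and Mbnl1 (0.902 and 0.888). Those of Itga4 were Ankrd44, Samsn1 and Selplg (0.918 to 0.944). Correlations were lower for Itga1, with Ssbp2, Ppp3cb and F2r (0.801 to 0.842), and for Itgb1, with Igfbp7, Gpm6b and Ppic (0.793 to 0.801). The names depend on the measure. By Spearman's rank correlation, of the 3 closest genes 0 were shared for Itgam, Itgae, Itgb1 and Itgb2, 1 each for Itgax, Itgal, Itga1 and Itga4, and 2 for Itgb7. These are descriptions over gates that share libraries and depth.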

How the data were processed

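UMI counts of scRNA-seq of tumor CD11c+ and T cells were used as deposited by the authors, as 1 matrix of whole-number counts per cell selection. Per the labels, reads were processed with Cell Ranger 3.0.2 against mm10. Whether doublets had been removed is not given in the sources used here, and none were removed. Runs held 360 to 2784 cells in the CD11c-selected and 2344 to 5173 in the CD4/CD8-selected matrix. Cells with at least 200 detected genes were gated on raw UMIs of non-integrin markers. Counts were summed per gate and given as CPM with exact 95% intervals (Poisson, conditional binomial for ratios, Clopper-Pearson for shares). Shares were also computed after thinning to 1000 UMIs (seed 1). For counts of genes at least 2-fold apart, genes needed 10 CPM in at least 1 gate and 10 UMIs in the 2 gates together. Gates needed 50 cells, and a gate at 0 UMIs was set to the floor of 3 counts. Named genes were the 9 members, for each the 3 genes of highest Pearson correlation over gates among genes reaching 50 CPM in a gate and used in no gate, and the leading genes of 3 lists (other integrin subunits, cytoplasmic partners, ligands) past 2-fold. 1 gate of CD8 T cells and 1 of the correlated genes are not reported here. The 2-fold calls were tried on simulated Poisson counts. These held no variation between cells, runs or samples, so they cannot show how such variation affects the calls. The members, gates and lists were chosen with earlier results of these data known. The count model foreseen for sums per sample was not run, because cells could not be tied to samples. Spearman's rank correlation was the alternative for the correlated genes. Other alternatives changed the gate minima, the detected-gene minimum, mitochondrial and high-UMI filters, weighting and each barcode run in turn. Sequences came from RefSeq (GRCm38.p6) and positions from GENCODE M21, which held 30431 of the 31053 symbols. Python 3.11.15, numpy 2.4.6, scipy 1.17.1, pandas 2.3.3 and matplotlib 3.10.9 were used.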

Additional observations from a re-analysis of the deposited data

How the results depend on the processing

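None of the 9 ratios below reversed direction in the alternatives run. Leaving out 1 barcode run at a time gave 1.21 to 1.85 for Itgax in macrophages of the CD11c-selected over the CD4/CD8-selected matrix, 1.93 to 2.78 for Itgam in neutrophils over macrophages, 2.39 to 2.67 for Itgal in CD8 T cells over macrophages, 18.3 to 36.3 for Itgae in cDC1 over cDC2, 1.26 to 2.36 for Itga1 in CD8 over CD4 T cells, 2.40 to 2.76 for Itga4 in cDC2 over macrophages, 0.312 to 0.368 for Itgb1 in Foxp3 over CD4 T cells, 1.56 to 1.71 for Itgb2 in macrophages over CD8 T cells and 0.0561 to 0.0783 for Itgb7 in migratory DC over cDC1. Without the third run of the CD4/CD8-selected matrix the Itgax ratio was 1.21, and without the first the Itga1 ratio was 2.36. Doubling the gate minima gave 43.8 for Itgae and 1.84 for Itga1. Leaving out the 5% of cells with most UMIs gave 0.228 for Itgb1 and 1.48 for Itgb2, and a mean over cells 2.30 for Itgal and 1.31 for Itgb2. Added after seeing the data, equal weights for runs gave 1.24 for Itgax, 2.69 for Itgal and 1.60 for Itgb2, and macrophages of the CD4/CD8-selected matrix 4.45 for Itgal and 2.07 for Itgb2. The cause of these shifts was not tested. No paired analysis was possible because the barcodes carry no replicate number, and the fit with a replicate block and the count model were not run. Few UMIs limit the levels of Itgae and Itga1 in cDC2 and of every member in Foxp3 T cells, monocytes and neutrophils.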
